A study of Mus musculus with 2 samples.

Results

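Capillary endothelial cells of aged mouse hindlimb muscle were examined after stimulation of the retinoic acid pathway and after its vehicle. A barcode was counted as a capillary endothelial cell where its raw UMI counts met 6 conditions at the same time, after the filters on genes, mitochondrial UMIs and hemoglobin UMIs. The members were chosen by these measured values: Pecam1, Cdh5, Kdr, Emcn, Egfl7 and Esam summed to at least 3 UMIs, Aqp1, Gpihbp1 and Rgcc to at least 2, and Pdgfra, Ptprc, Pax7 and Rgs5 to at most 1. The sum of the arterial genes Sema3g, Gja5, Bmx and Gja4 was at most 1, that of the venous genes Vwf, Selp, Ackr1 and Lrg1 at most 2, and that of the interferon-induced genes Gbp2, Gbp4, Gbp7, Igtp and Cd274 (the interferon sum) was under 10. The gate held 2679 cells of the 14984 that passed the filters and of the 27838 barcodes in both libraries, 1777 in the ATRA+agonist library and 902 in the DMSO vehicle library.

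Both groups were 24-month-old female C57Bl/6J mice without a transgene or deletion in their labels. The ATRA+agonist mice were given 3 intramuscular doses of all-trans retinoic acid (ATRA) together with CD3254, which activates RXR-alpha, and BMS961, which activates RAR-gamma, and the DMSO vehicle mice received the solvent in the same way. By the paper's methods, the mice recovered for 3 days after the last dose before muscle was taken. Each group is a single library made from the pooled cells of 2 mice, which cannot be separated, and all differences given here are between 2 libraries and have no test. Intervals are 95% intervals of the counting error, and they leave out the differences between mice. Ratio and CPM intervals also leave out the clumping of UMIs in few cells.

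Capillaries are the thinnest vessels of muscle, and their endothelial cells hand oxygen, glucose and fatty acids from the blood to the fibers. Gpihbp1 carries lipoprotein lipase to the inner surface of the capillary, where it frees fatty acids from lipoproteins, and Cd36 and the lipid-binding protein Fabp4 take them onward into the cell. Retinoic acid acts in these cells, as in others, through nuclear receptors of the RAR and RXR families, which bind DNA in pairs, and cells limit it with Cyp26 enzymes and Dhrs3.

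Capillary cells had few UMIs each. Their median was 3013 UMIs and 1578 genes in the ATRA+agonist library and 2888 UMIs and 1494 genes in the DMSO vehicle library, and their summed UMIs were 5701690 and 2906235. The median mitochondrial share was 2.44% and 2.36%, while the median share of hemoglobin beta UMIs was 0.0275% and 0.0956%. The libraries shared 43 barcode sequences, of which 0 were gated as capillary cells in both and 5 in one of them. The limit on hemoglobin beta UMIs alone removed 74 ATRA+agonist and 325 DMSO vehicle barcodes that met every other condition. RNA of other cells was also present. A total of 49 ATRA+agonist cells (2.76%, 2.05% to 3.63%) and 56 DMSO vehicle cells (6.21%, 4.72% to 7.99%) held 10 or more UMIs over the marker lists of other cell types, which is called an other-cell barcode here. They held 333187 and 459537 UMIs, and their median depth was 5155 and 7598 UMIs. These barcodes were left out as an alternative, chosen after seeing the data. Ratios without them are given for some genes only. A single ratio is that of all gated barcodes, and the ratio without these barcodes may differ from it.

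The lists of other cells differed between the libraries in their summed level. Tenocyte markers summed to 246.8 CPM (UMIs per 1000000 UMIs of the gated cells) in ATRA+agonist and 1611 CPM in DMSO vehicle capillary cells, with 10 or more UMIs in 7 and 32 barcodes. Mesenchymal markers summed to 674 and 1487 CPM, and muscle stem cell markers to 40.0 and 109.4 CPM. Muscle fiber transcripts went the other way, with 842.2 and 98.1 CPM, and so did lymphatic endothelial markers, with 442.3 and 171.7 CPM. The sums for leukocytes were 68.4 and 117.7 CPM, those for pericytes and smooth muscle 24.4 and 80.5 CPM, those for Schwann cells 22.6 and 64.3 CPM, and those for neutrophils 2.11 and 9.98 CPM. Without the other-cell barcodes the tenocyte sums were 2.98 and 4.91 CPM, the mesenchymal sums 52.0 and 69.1 CPM, and the fiber sums 103.9 and 78.9 CPM. Nkg7 and Retnlg were at 0 in the ATRA+agonist capillary cells, Cd3e, Cd3g, Myod1, Cnn1 and Cxcr2 in the DMSO vehicle capillary cells, and Slc4a1 in both. Free erythroid RNA (Hba-a1 and 3 related genes) summed to 219.9 and 539.5 CPM, and to 213.8 and 587.3 CPM without the other-cell barcodes, so it was not held by them.

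The 4 genes that mark the label were checked at a common depth, with each cell thinned to 2000 UMIs and shallower cells left out. This kept 1372 ATRA+agonist and 657 DMSO vehicle capillary cells, and left out 405 and 245. Aqp1, a water channel, had a UMI in 85.6% and 80.97% of them, Gpihbp1 in 88.1% and 84.2%, Rgcc, a cell cycle regulator, in 88.8% and 88.6%, and Kdr, the main VEGF receptor, in 83.1% and 74.1%. In mesenchymal cells thinned in the same way, which should lack these genes, the shares ran from 0% to 0.712% for Aqp1, Gpihbp1 and Kdr, and were 3.36% and 6.40% for Rgcc. Before thinning, the mesenchymal cells had medians of 9677 and 7802 UMIs. All 4 genes were part of the gate, so these shares describe the choice. Of the genes that the gate did not use, Cd36 had a UMI in 95.3% and 92.8% of the thinned capillary cells and Fabp4 in 98.9% and 94.5%, against 0.305% to 4.53% in mesenchymal cells. With ATRA+agonist arterial and venous cells had 10206 and 11981 CPM of Fabp4 against 15618 CPM in capillary cells, and 1677 and 1551 CPM of Cd36 against 2507 CPM, so both genes mark endothelium and not capillaries alone.

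At the edges of the gate, 75 ATRA+agonist and 70 DMSO vehicle cells had the lowest accepted endothelial sum of 3, and 76 and 60 barcodes that met all other conditions fell just short of it with a sum of 2. The lowest accepted capillary sum of 2 was held by 71 and 62 cells, and 60 and 58 had a sum of 1. The highest accepted sum of the other-cell genes was held by 210 and 91 cells and exceeded by 1 UMI in 74 and 41, that of the arterial genes by 139 and 77 against 34 and 28, and that of the venous genes by 72 and 32 against 29 and 11. At the interferon limit 29 and 33 cells had a sum of 9, and 18 and 42 had a sum of 10. Counting every cell that met all conditions but the one named, 95 ATRA+agonist and 807 DMSO vehicle cells were outside the interferon limit, 356 and 497 the endothelial limit, 347 and 198 that of the other-cell genes, 148 and 158 the capillary limit, 78 and 59 the arterial limit and 79 and 40 the venous limit. The interferon limit thus had the most unequal numbers outside it of the 6.

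Capillary cells made up 23.8% (22.8% to 24.8%) of the filtered ATRA+agonist cells and 12% (11.3% to 12.8%) of the filtered DMSO vehicle cells, a ratio of 1.98 (1.84 to 2.13). The endothelial gate as a whole held 2284 and 2257 cells, 30.6% and 30.03%, a ratio of 1.02 (0.970 to 1.07). Within it the capillary share was 77.8% (76.0% to 79.5%) in the ATRA+agonist library and 40.0% (37.9% to 42.0%) in the DMSO vehicle library. Cells with an interferon sum of 10 or more were 5.91% (4.98% to 6.96%) and 46.9% (44.8% to 49.0%) of the endothelial cells, and 70.4% and 76.2% of them met every other capillary condition. Arterial cells were 4.86% and 3.68%, venous cells 3.81% and 2.08%, and cells in no class 7.62% and 7.36%. With no interferon limit the capillary gate held 1872 and 1709 cells, and the ratio of their shares of the filtered cells was 1.10. The larger share of capillary cells in the ATRA+agonist library therefore came with the interferon limit of the gate.

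**Figure D1:**
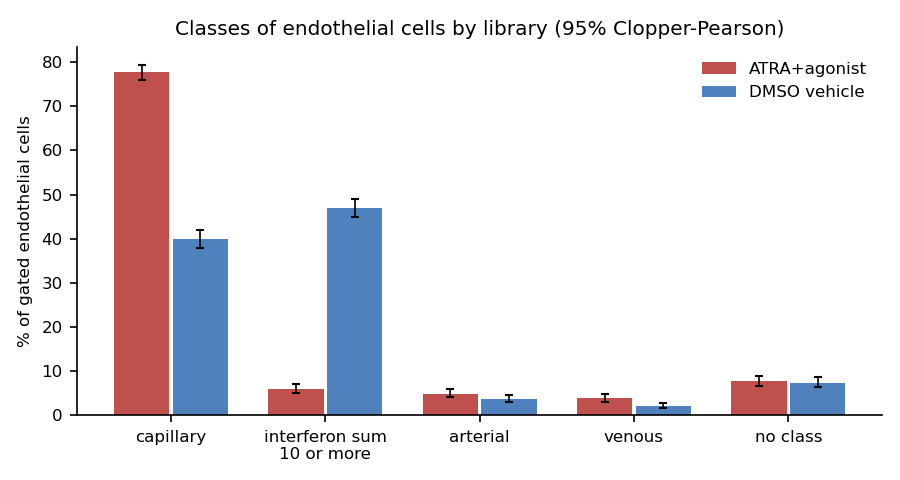
Share of the gated endothelial cells in each class (vertical axis, percent, starting at 0) in the ATRA+agonist and the DMSO vehicle library, with bars for the share and lines for the 95% Clopper-Pearson interval. Capillary cells are 77.8% and 40.0%, and cells with an interferon sum of 10 or more are 5.91% and 46.9%, while arterial, venous and unclassed cells are each under 8% in both libraries.

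Levels of capillary genes outside the gate were set beside those of the arterial and venous cells of the same library, as a description, since the classes were cut from counts of the same cells. Car4, a carbonic anhydrase on the capillary surface, was at 301.8 CPM in capillary, 85.5 CPM in arterial and 32.7 CPM in venous cells with ATRA+agonist, and at 279.4, 99.6 and 25.4 CPM with DMSO vehicle. Its log2 ratio of capillary over arterial and venous cells together was 2.35 (2.00 to 2.73) and 2.06 (1.61 to 2.54). For Timp4, an inhibitor of matrix proteases, this ratio was 2.03 (1.84 to 2.21) and 1.88 (1.68 to 2.08). For Lpl, lipoprotein lipase itself, it was 1.59 (1.40 to 1.80) and 1.87 (1.64 to 2.10). Tcf15, a transcription factor of heart and muscle endothelium, had ratios of 1.27 and 1.27, and the surface protein Cd300lg had ratios of 1.23 and 1.13. The capillary level was the highest of the 3 classes for all 5 of these genes in both libraries.

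Other genes placed on the capillary list were not highest in capillary cells. Rbp7, an intracellular retinol-binding protein, was at 128.7 CPM in capillary, 438.4 CPM in arterial and 54.5 CPM in venous cells with ATRA+agonist, and at 284.6, 771.5 and 134.5 CPM with DMSO vehicle. Plvap, which forms the diaphragms of fenestrae and caveolae, was at 16.8 CPM in capillary and 889.8 CPM in venous cells with ATRA+agonist, a log2 ratio of capillary over arterial and venous cells of -4.82, and at 27.5 and 923.1 CPM with DMSO vehicle, a ratio of -3.95. The venous transcription factor Nr2f2 had ratios of -1.92 and -1.84, and Vegfc, a ligand for lymphatic growth, -3.05 and -3.51. Fabp4 and Cd36 differed less between the classes, with ratios of 0.49 and 0.30 for Fabp4 and of 0.64 and 0.54 for Cd36. The 10 genes with the largest ratio of capillary over arterial and venous cells in both libraries, selected on that ratio, were Fmod, Thbs4, Gpx3, Col1a2, Cilp, Kcnma1, Rarres2, Col1a1, Cryab and Ogn. Many of these are matrix genes of tendon and connective tissue rather than capillary genes, and the 1% of DMSO vehicle cells with the most UMIs held 57.0% to 78.4% of their UMIs.

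Capillary cells varied among themselves along the interferon sum that limited the gate. The sum was 0 in 547 ATRA+agonist cells (30.8%) and 246 DMSO vehicle cells (27.3%), 1 to 4 in 975 (54.9%) and 455 (50.4%), and 5 to 9 in 255 (14.4%) and 201 (22.3%). Median depth ran from 2345 through 3157 to 3840 UMIs over these ranges in the ATRA+agonist cells, and from 2634 through 3081 to 2511 UMIs in the DMSO vehicle cells, so that a high sum went with depth in the first but not in the second. Summed interferon-response genes outside the gate were at 7493, 9920 and 15230 CPM with ATRA+agonist and at 4732, 8159 and 15032 CPM with DMSO vehicle. Isg15, a ubiquitin-like protein induced by interferon, was at 390.3, 649.6 and 1120 CPM and at 161.2, 405.6 and 1043 CPM. H2-K1, a heavy chain of MHC class I, was at 1241, 1293 and 1516 CPM with ATRA+agonist and at 1076, 1287 and 2557 CPM with DMSO vehicle. At sums of 5 to 9, Isg15 was thus alike in both libraries while H2-K1 was lower with ATRA+agonist.

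Several genes held their difference between the libraries at each interferon sum. Zbtb16 was at 62.0, 60.7 and 87.4 CPM with ATRA+agonist and at 257.1, 231.6 and 237.9 CPM with DMSO vehicle. For Rbp7 the values were 140.7, 127.6 and 117.7 CPM with ATRA+agonist and 314.4, 285.9 and 244.4 CPM with DMSO vehicle. Lpl and Id3 were likewise lower with ATRA+agonist at each sum. Robo2 was higher with ATRA+agonist at each sum, but by unequal amounts: 286.7, 286.4 and 411.2 CPM against 147.9, 125.5 and 52.5 CPM. Without the other-cell barcodes its log2 ratios were 0.59 (0.28 to 0.91), 1.15 (0.92 to 1.39) and 2.91 (2.36 to 3.52).

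**Figure D2:**
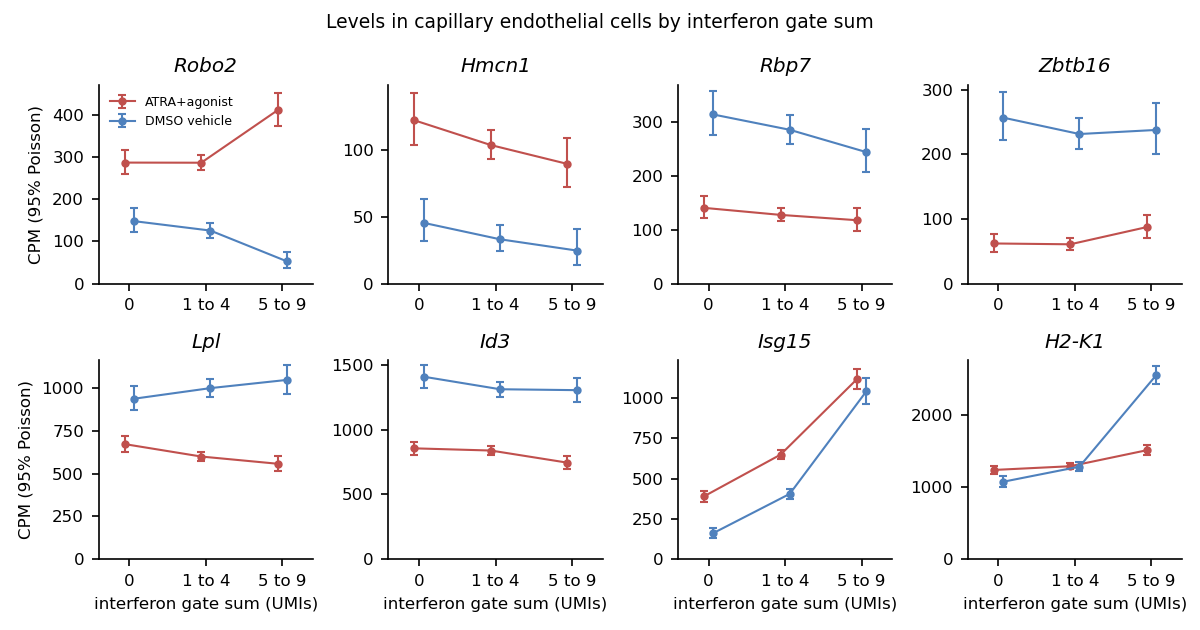
Level of 8 genes in capillary cells (vertical axes, CPM with 95% Poisson intervals) against the interferon sum of the cell in 3 ranges (0, 1 to 4, 5 to 9 UMIs), for the ATRA+agonist and the DMSO vehicle library. Robo2 and Hmcn1 lie higher and Rbp7, Zbtb16, Lpl and Id3 lower with ATRA+agonist in every range, while Isg15 climbs with the sum in both libraries and H2-K1 reaches 2557 CPM in the DMSO vehicle cells with the highest sums against 1516 CPM with ATRA+agonist.

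Cells also differed along the capillary and arterial sums. A capillary sum of 10 or more was held by 1294 ATRA+agonist cells (72.8%) and 580 DMSO vehicle cells (64.3%), one of 5 to 9 by 288 (16.2%) and 165 (18.3%), and one of 2 to 4 by 195 (10.97%) and 157 (17.4%). Timp4, which the gate did not use, was at 300.5, 456.8 and 1049 CPM from the lowest to the highest of these sums with ATRA+agonist and at 244.5, 597.6 and 1577 CPM with DMSO vehicle. Lpl was at 354.4, 425.9 and 654.3 CPM and at 349.3, 644.7 and 1190 CPM, so its levels were close at the lowest sums and apart at the highest. These groups also differed in depth, with medians of 1201, 2002 and 3360.5 UMIs with ATRA+agonist and 1760, 1866 and 3289.5 UMIs with DMSO vehicle, and in Fabp4, which was at 12939, 13601 and 16114 CPM with ATRA+agonist and 7953, 12678 and 19979 CPM with DMSO vehicle. The cells with a single UMI of an arterial gate gene had 362.1 CPM of Rbp7 with ATRA+agonist and 789.0 CPM with DMSO vehicle, against 106.4 and 237.1 CPM in the cells with none. Rbp7 was thus higher in the cells with a trace of arterial genes, and lower with ATRA+agonist in either kind of cell. By capillary sum it was not lower throughout: from the lowest to the highest sums Rbp7 was at 326.0 (269.2 to 391.3), 212.2 and 101.7 CPM with ATRA+agonist and at 249.5 (203.0 to 303.4), 310.6 and 286.0 CPM with DMSO vehicle. Levels by capillary sum include the other-cell barcodes. At sums of 2 to 4, Kdr and Cxcl12 were at 722.9 and 2376 CPM with ATRA+agonist and at 314.3 and 1068 CPM with DMSO vehicle.

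The capillary cells of both libraries were then compared gene by gene. Of the 8397 genes with 100 or more UMIs, 356 (4.24%) were 1.5-fold or more higher with ATRA+agonist and 410 (4.88%) were 1.5-fold or more lower, and the median log2 ratio of ATRA+agonist over DMSO vehicle was 0.04. A gene past 1.5-fold is called higher or lower in the counts that follow. Each list count of all gated barcodes is to be read beside these shares over all genes, 4.24% higher and 4.88% lower. Without the other-cell barcodes 327 of 7877 genes (4.15%) were higher and 149 (1.89%) lower, so that the number of lower genes rested in large part on these barcodes. With no limit on hemoglobin beta UMIs 891 genes were higher and 306 lower.

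Most of the largest differences among the genes with 400 or more UMIs were of genes known from other cell types. The origin of their UMIs was not tested. The 10 lowest ratios belonged to the matrix and connective tissue genes Mgp, Aspn, Itgbl1, Ccn2, Ptprd, Col12a1, Apod, Thbs1, Lama2 and Bgn. Mgp, a calcification inhibitor, had 345 UMIs with ATRA+agonist and 9998 UMIs with DMSO vehicle, a log2 ratio of -5.83, and the 1% of DMSO vehicle cells with the most held 75.2% of the latter. Without the other-cell barcodes it had 50 and 35 UMIs and a ratio of -0.62, still past 1.5-fold. Aspn had 48 and 749 UMIs, of which 12 and 2 were left. Ccn2, a matrix-associated growth factor, had 56 and 793 UMIs, of which 48 and 42 were left. Among the 10 highest were 6 genes of the fast muscle fiber, Myl1, Tnnt3, Tnnc2, Acta1, Tnni2 and Mylpf. With no maximum of 5000 genes per cell Myl1, Tnnc2, Tnni2 and Mylpf had ratios from -1.04 to -0.30, the opposite sign. Acta1, skeletal actin, had 1222 and 72 UMIs, and 97 and 46 without the other-cell barcodes. The lymphatic chemokine Ccl21a had 1527 and 143 UMIs, all of them in 1% of the cells, and 3 and 0 without these barcodes. The fiber genes and Ccl21a are on the lists by which the barcodes were removed, so their loss follows from that step, while Mgp, Itgbl1 and Ccn2 are on none of those lists.

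The remaining 3 of the 10 highest were spread over many cells. Hmcn1 (chromosome 1, 150562524 to 150993435, minus strand), a large matrix protein, was at 104.9 CPM with ATRA+agonist and 34.4 CPM with DMSO vehicle, a log2 ratio of 1.61 (1.30 to 1.93) and of 1.48 without the other-cell barcodes. Robo2 (chromosome 16, 73891839 to 74411825, minus strand), a receptor for Slit guidance proteins, was at 310.3 and 116.0 CPM, with ratios of 1.42 (1.25 to 1.59) and 1.27. In thinned cells Robo2 had a UMI in 29.0% (26.6% to 31.5%) of ATRA+agonist and 12.02% (9.64% to 14.8%) of DMSO vehicle capillary cells, against 0.204% and 0.800% in mesenchymal cells. Samd5 (chromosome 10, 9622936 to 9675208, minus strand), which holds a sterile alpha motif, was at 92.8 and 42.0 CPM, with ratios of 1.14 and 1.04, and had a UMI in 13.8% and 5.48% of the thinned cells. The thinned share for Hmcn1 was 14.9% and 5.48%, but the mesenchymal cells had it at 9.26% and 10.3%. Arhgap18 (chromosome 10, 26753421 to 26918648, plus strand), a GTPase-activating protein that the lists of tip cell and junction genes do not hold, was at 474.9 and 245.0 CPM and had a UMI in 53.3% and 32.7% of the thinned capillary cells. By capillary sum Robo2 was not evenly higher: it was at 215.5, 241.7 and 327.4 CPM from the lowest to the highest sums with ATRA+agonist and at 87.3, 221.2 and 99.98 CPM with DMSO vehicle, so that at sums of 5 to 9 the intervals, 206.1 to 281.6 CPM and 178.7 to 270.7 CPM, overlapped. The Robo2 levels by capillary sum include the other-cell barcodes.

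**Figure D3:**
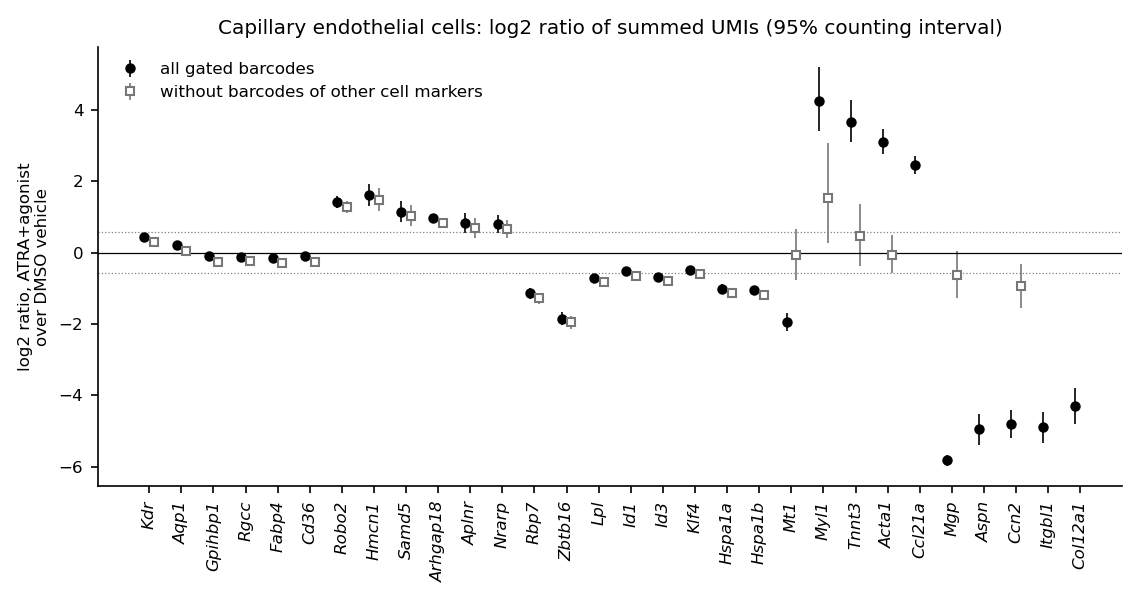
Log2 ratio of ATRA+agonist over DMSO vehicle for 30 genes in capillary cells (vertical axis), for all gated barcodes (filled circles) and without barcodes of other cell markers (open squares), with 95% counting intervals and dotted lines at 1.5-fold. Robo2 is at 1.42 and 1.27 and Zbtb16 at -1.86 and -1.961 in these readings, whereas Mgp moves from -5.83 to -0.62 and Mt1 from -1.94 to -0.08.

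Endothelial identity differed little between the libraries. Of the 20 identity genes 0 were higher and 0 lower, with a median log2 ratio of 0.22, and of 0.05 without the other-cell barcodes. Pecam1, a junction protein of all endothelium, was at 1180 CPM in both, and Flt1, a decoy VEGF receptor, at 3400 and 3342 CPM. The gate gene Kdr (chromosome 5, 75932827 to 75978458, minus strand) was at 1118 and 823.1 CPM, a ratio of 0.44 (0.37 to 0.51). Of the other markers of the label, Aqp1 was at 3073 and 2674 CPM, Gpihbp1 at 1572 and 1683 CPM and Rgcc at 1496 and 1619 CPM, with ratios of 0.20, -0.10 and -0.11. Of the 25 capillary genes outside the gate, 0 were higher and 3 lower, Rbp7, Meox1 and Plvap, and the median was 0.11, or -0.08 without the other-cell barcodes, where Sgk1 joined the lower genes. Cxcl12, a chemokine made by capillaries, was at 2760 and 2013 CPM, a ratio of 0.46 (0.41 to 0.50). Timp4 was at 932.0 and 1250 CPM, a ratio of -0.42 (-0.48 to -0.36). Without the other-cell barcodes, ratios were taken at interferon sums of 0, 1 to 4 and 5 to 9. These were 0.22, 0.30 and 0.36 for Kdr, 0.14, 0.27 and 0.54 for Cxcl12, and -0.56, -0.59 and -0.61 for Timp4.

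Genes of fatty acid uptake gave 0 higher and 3 lower of 26 measured members, with a median of -0.01. Lpl (chromosome 8, 68880491 to 68907448, plus strand) was at 608.6 CPM with ATRA+agonist and 994.1 CPM with DMSO vehicle, a ratio of -0.71 (-0.78 to -0.64), which was -0.57 with no limit on hemoglobin beta UMIs. It had a UMI in 60.6% and 70.6% of the thinned capillary cells, but mesenchymal cells also express it, with 46.1% and 42.8%. Angptl4, an inhibitor of this lipase, had 41 and 64 UMIs, a ratio of -1.61 (-2.22 to -1.03), which was -0.72 with no interferon limit. The other lower gene, Acsl3, an acyl-CoA synthetase, had 59 and 54 UMIs and a ratio of -0.84 that was 0.09 without the other-cell barcodes. Downstream of the lipase, Cd36 was at 2507 and 2679 CPM and Fabp4 at 15618 and 17253 CPM, with ratios of -0.10 and -0.14. Angptl4 had a UMI in 1.24% and 3.35% of the thinned capillary cells, against 3.15% and 3.11% of mesenchymal cells, so its level was near that of other cells. Without the other-cell barcodes, ratios were taken at interferon sums of 0, 1 to 4 and 5 to 9. These were -0.82, -0.80 and -0.96 for Lpl, -0.28, -0.22 and -0.34 for Cd36, and -0.26, -0.33 and -0.24 for Fabp4. Lpl was thus lower at each interferon sum, and the uptake genes Cd36 and Fabp4 were lower by less. By capillary sum, with the other-cell barcodes included, this did not hold throughout. From the lowest to the highest sums Cd36 was at 2095, 2292 and 2569 CPM with ATRA+agonist and at 1327, 2122 and 3054 CPM with DMSO vehicle. Fabp4 was likewise lower with ATRA+agonist only at sums of 10 or more, and Lpl was close in both libraries at sums of 2 to 4. Of 24 fatty acid oxidation genes, 1 was higher, near the share of 4.24% over all genes. It was Hsd17b10, at 35.8 and 23.4 CPM. Of 17 glycolysis genes 3 were higher, among them Ldhb, with 109 and 24 UMIs, and Gapdh had a ratio of 0.45. None of the 75 nuclear and 13 mitochondrial genes of oxidative phosphorylation was past 1.5-fold, with medians of 0.10 and 0.03.

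The retinoic acid pathway gave 0 higher and 2 lower of 15 measured members, with a median of -0.09, and 0 higher and 1 lower of 13, with a median of -0.01, without the other-cell barcodes. Its induced genes named here were inside 1.5-fold and did not share a direction. Dhrs3, which reduces retinaldehyde back to retinol, was at 226.2 and 200.3 CPM, a ratio of 0.18 (0.03 to 0.32). Cyp26b1, which degrades retinoic acid, was at 147.5 and 125.6 CPM, a ratio of 0.23 (0.05 to 0.41). Tgm2, a transglutaminase induced by retinoids, was at 164.5 and 208.2 CPM, a ratio of -0.34 (-0.49 to -0.19). Among the receptors, Rarg, the target of BMS961, was at 74.4 and 59.9 CPM, a ratio of 0.31 (0.06 to 0.58). Rara was at 17.2 and 22.4 CPM and Rxra at 22.3 and 22.02 CPM, with ratios of -0.38 (-0.85 to 0.10) and 0.02 (-0.43 to 0.47), so that no difference was detectable at this depth.

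Rbp7 (chromosome 4, 149449687 to 149454978, minus strand) was the gene that was lower in both readings of the pathway and is also on the capillary list. It was at 128.7 CPM with ATRA+agonist and 284.6 CPM with DMSO vehicle, a ratio of -1.14 (-1.29 to -0.999), -1.29 without the other-cell barcodes and -0.55 with no interferon limit. It had a UMI in 14.3% and 23.1% of the thinned capillary cells, and in 0% and 0.178% of mesenchymal cells. The difference past 1.5-fold thus held in the gated cells but was smaller where cells with a high interferon sum were included. Because Rbp7 was the lowest ratio of its pathway outside the other-cell barcodes, the 250 bases before its RefSeq start (build GRCm38.p6, chr4:149454969-149455218, minus strand) were read for the nuclear receptor motif AGGTCA on both strands, and none was there. AGGTCA stands in 14% of 32851 promoter windows of this length and in 10.6% of the 8583 windows of genes with 100 or more UMIs in capillary cells. Windows of other genes were read too, and those of Cd36 (chr5:17835897-17836146) and Sgk1 (chr10:21978422-21978671 and chr10:21985854-21986103) held it on either strand. The lack of a match in 250 bases says nothing of how Rbp7 is regulated.
Rbp7 promoter: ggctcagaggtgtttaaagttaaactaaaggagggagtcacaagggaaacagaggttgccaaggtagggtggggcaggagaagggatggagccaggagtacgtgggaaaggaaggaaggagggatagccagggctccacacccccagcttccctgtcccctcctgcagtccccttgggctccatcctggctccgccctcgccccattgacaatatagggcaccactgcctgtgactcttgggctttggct

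Glucocorticoid-induced genes gave 1 higher and 9 lower of 22 measured members, with a median of -0.29, and 1 higher and 6 lower of 19, with a median of -0.22, without the other-cell barcodes. With no limit on hemoglobin beta UMIs the median was -0.06 and Tsc22d3, Per1 and Klf9 came inside 1.5-fold, at -0.57, -0.56 and -0.42, while Zbtb16 and Fkbp5 did not, at -1.64 and -1.01. Zbtb16 (chromosome 9, 48654297 to 48836222, minus strand), a zinc finger repressor strongly induced by glucocorticoids, was at 66.1 CPM with ATRA+agonist and 239.5 CPM with DMSO vehicle, a ratio of -1.86 (-2.04 to -1.67). It had a UMI in 12.2% and 32.7% of the thinned capillary cells, and mesenchymal cells, at 24.4% and 47.0%, differed in the same direction. Fkbp5, a chaperone of the glucocorticoid receptor, had 143 and 167 UMIs, a ratio of -1.20 (-1.53 to -0.87). Tsc22d3, an anti-inflammatory target of the receptor, was at 102.4 and 176.5 CPM, a ratio of -0.79 (-0.96 to -0.61). The clock gene Per1 was at 28.6 and 48.2 CPM, a ratio of -0.75, and the Kruppel-like factor Klf9 at 371.3 and 557.8 CPM, a ratio of -0.59. The kinase Map3k6 had 81 and 99 UMIs and a ratio of -1.26 (-1.70 to -0.82). The 1 higher member was Pdk4, a brake on pyruvate oxidation, with 101 and 26 UMIs and a ratio of 0.99 that was 0.28 with no interferon limit. Dusp1 and Cdkn1a, which many other signals also induce, had ratios of -0.10 and -0.18. Metallothioneins Mt1 and Mt2 were among the lower members, but Mt1 went from -1.94 to -0.08 without the other-cell barcodes, and the part of other cells in the remaining list was not tested.

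Sgk1, a kinase induced by glucocorticoids and aldosterone, was at 531.6 CPM with ATRA+agonist and 780.7 CPM with DMSO vehicle, a ratio of -0.56 (-0.63 to -0.48), just inside 1.5-fold, and of -0.69 without the other-cell barcodes. The core of a glucocorticoid receptor site, ACANNNTGT, which reads the same on both strands, was searched in the windows of 3 of the glucocorticoid-induced genes, Fkbp5, Tsc22d3 and Sgk1. The 1 window of Fkbp5 and the 3 of Tsc22d3, both past 1.5-fold, hold 0 matches, and the windows of Sgk1 are shown because they were the ones to match. Of its 6 RefSeq windows of 250 bases (build GRCm38.p6, chromosome 10, plus strand) 2 hold this core, those at chr10:21978422-21978671 and chr10:21993640-21993889, and the match is in capitals in the lines that follow, together with the reverse complement of AGGTCA in the first. The core stands in 5.84% of all 32851 windows and in 3.36% of the 8583 windows of genes measured here. A match is a match of letters and says nothing of binding in these cells.
Sgk1 promoter at 21978422: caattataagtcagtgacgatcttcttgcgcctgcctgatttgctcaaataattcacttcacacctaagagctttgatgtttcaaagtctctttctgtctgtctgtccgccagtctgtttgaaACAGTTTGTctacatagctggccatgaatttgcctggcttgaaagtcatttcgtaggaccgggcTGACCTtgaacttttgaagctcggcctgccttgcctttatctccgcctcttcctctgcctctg
Sgk1 promoter at 21993640: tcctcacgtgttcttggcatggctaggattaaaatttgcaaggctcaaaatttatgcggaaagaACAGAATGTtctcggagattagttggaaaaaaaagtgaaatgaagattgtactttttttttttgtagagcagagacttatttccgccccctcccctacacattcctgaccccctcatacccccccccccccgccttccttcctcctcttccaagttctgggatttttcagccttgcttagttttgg

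Of 19 measured genes of BMP signaling and the Id family, 1 was higher and 4 lower, with a median of -0.00. Id1 and Id3 are inhibitors of helix-loop-helix transcription factors and targets of BMP. The 4 lower genes were Id3, Smad6, Smad7 and the receptor Bmpr1a, and without the other-cell barcodes Id1 took the place of Bmpr1a. Id1 was at 641.6 CPM with ATRA+agonist and 920.8 CPM with DMSO vehicle, a ratio of -0.52, and Id3 was at 824.0 and 1334 CPM, a ratio of -0.70. By capillary sum, with the other-cell barcodes included, Id1 was not lower throughout. From the lowest to the highest sums Id1 was at 428.1, 608.6 and 662.5 CPM with ATRA+agonist and at 321.8, 632.9 and 1095 CPM with DMSO vehicle. Id3 was lower with ATRA+agonist at each capillary sum. In thinned cells Id1 had a UMI in 57.7% and 70.6% of capillary cells and Id3 in 68.1% and 81.3%, with mesenchymal shares of 5.59% and 4.62% for Id1 and of 43.2% and 52.8% for Id3. The feedback inhibitors lay on the same side: Smad6 was at 20.3 and 39.9 CPM, a ratio of -0.97, and Smad7 at 111.5 and 173.1 CPM, a ratio of -0.63 (-0.81 to -0.46), which was -0.42 with no interferon limit. With no limit on hemoglobin beta UMIs Id3 was at -0.53 and Smad7 at -0.45, inside 1.5-fold, and Smad6 at -0.81. Id2 was at 103.0 and 136.6 CPM, a ratio of -0.41 (-0.59 to -0.22). The higher gene was the activin receptor Acvr2b, at 0.83. The ligand Bmp6, which endothelial cells secrete, had a ratio of -0.00. Of the study's other genes, Sirt2 had a ratio of 0.10 (-0.18 to 0.38), Rock2 one of -0.04 (-0.16 to 0.08), and Pax7 had 2 and 1 UMIs, as the gate demands.

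Genes of angiogenesis and tip cells, the leading cells of a sprout, gave 3 higher and 0 lower of 19, with a median of 0.24 (0.10 without the other-cell barcodes). The apelin receptor Aplnr was at 83.3 CPM with ATRA+agonist and 47.1 CPM with DMSO vehicle, a ratio of 0.82 (0.54 to 1.11), and had a UMI in 11.6% and 6.85% of the thinned cells. Its ligand Apln had 125 and 27 UMIs, a ratio of 1.24 (0.63 to 1.90), but all 27 of the latter lay in 1% of the cells. The share of thinned cells with an Apln UMI was 0.948% and 0.913%. The chemokine receptor Cxcr4 had 152 and 50 UMIs, a ratio of 0.63 (0.16 to 1.12). In the Notch pathway, which holds sprouting back, 1 of 17 members was higher and 2 lower, with a median of -0.01. The higher one was Nrarp, a feedback inhibitor of Notch, at 99.3 and 57.1 CPM, a ratio of 0.80 (0.55 to 1.06) and of 0.66 without the other-cell barcodes. The Notch target Hes1 had a ratio of -0.07, Hey1 one of -0.61 (-0.96 to -0.25), which was -0.30 with no interferon limit, and the ligand Dll4 one of 0.58 (0.39 to 0.78), at the threshold. Notch2 was lower at -1.33 but at 0.21 without the other-cell barcodes. Targets of Notch thus did not share a direction. Proliferation genes gave 2 higher and 0 lower of 8, the replication genes Mcm6 at 22.98 and 13.8 CPM and Tyms at 18.1 and 11.7 CPM.

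Interferon-response genes outside the gate gave 2 higher and 2 lower of 35, with a median of 0.22. These values depend on the limit of the gate, which left 135 and 1059 endothelial cells outside, and with no limit the median was -0.70. The type I responders Ifit1 and Ifit3 were at 221.2 and 141.1 CPM and at 89.8 and 51.3 CPM, with ratios of 0.65 and 0.81, which were -0.52 and -0.46 with no limit. Iigp1, an immunity-related GTPase, was at 2977 and 2222 CPM, a ratio of 0.42 that was -0.15 with no limit. Ubd, a ubiquitin-like protein induced by interferon-gamma, was lower in either case, with 6 and 96 UMIs and ratios of -4.97 (-6.45 to -3.80) and -6.46. Gbp3, a guanylate-binding protein, lay on the same side, with a ratio of -0.65. Of 16 genes of MHC class I, 1 was lower, beside 4.88% of all genes. It was H2-Q7, at 193.8 and 292.8 CPM. The light chain of the complex, B2m, was at 1643 and 1967 CPM, with a list median of -0.20. All 4 measured genes of MHC class II were lower. The invariant chain Cd74 was at 38.4 and 94.97 CPM, a ratio of -1.31 (-1.57 to -1.05), and of -2.92 without the other-cell barcodes, and H2-Ab1, H2-Eb1 and H2-Aa had ratios of -1.50, -1.17 and -1.25. In the cells with an interferon sum under 3, however, Cd74 was at 0.72, H2-Ab1 at 0.42 and H2-Eb1 at 0.84. Cd74 had a UMI in 2.26% and 5.02% of the thinned capillary cells and in 0.814% and 0.800% of mesenchymal cells.

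**Figure D4:**
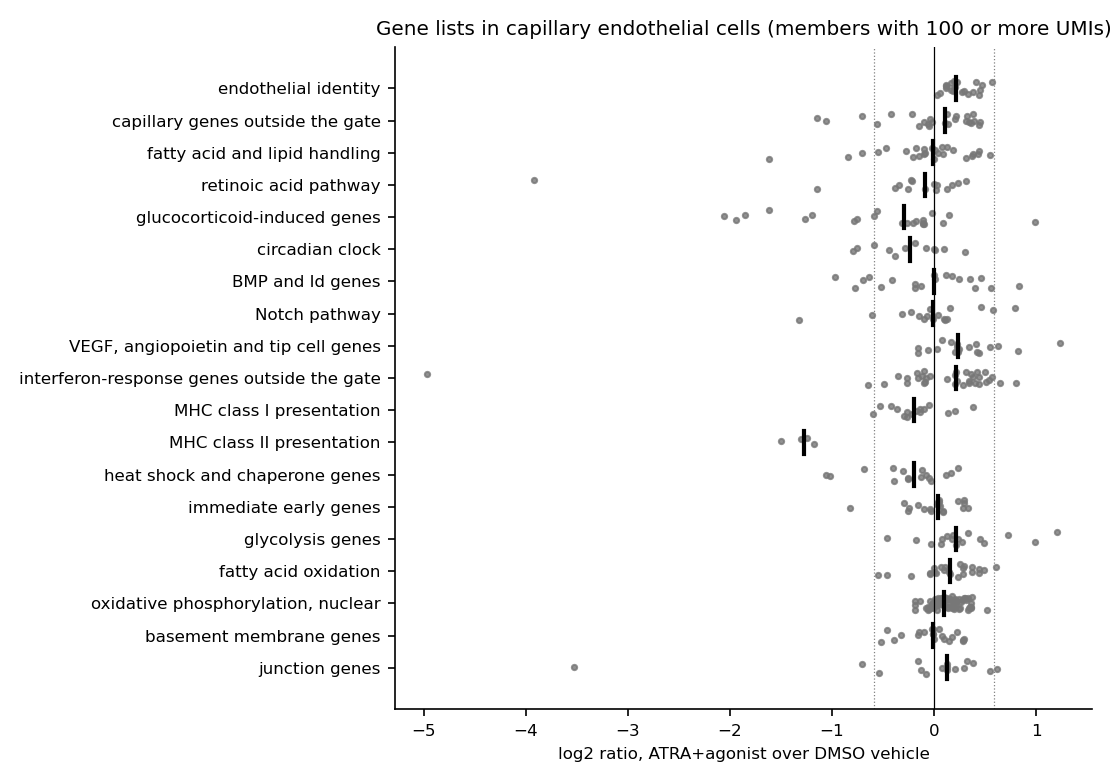
Log2 ratio of ATRA+agonist over DMSO vehicle (horizontal axis) of each member with 100 or more UMIs in 19 gene lists in capillary cells, all gated barcodes, with a bar at the list median and dotted lines at 1.5-fold. Members of the oxidative phosphorylation and basement membrane lists stay inside the dotted lines, the glucocorticoid-induced list has 9 members below them, and all 4 MHC class II genes lie below.

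Heat shock genes gave 0 higher and 3 lower of 16, with a median of -0.19. The inducible chaperones Hspa1a and Hspa1b were at 185.7 and 375.7 CPM and at 156.3 and 325.9 CPM, with ratios of -1.02 (-1.14 to -0.89) and -1.06 (-1.19 to -0.93), and Hsph1 had a ratio of -0.68. Hspa1a and Hspa1b are near-identical copies, so their reads may be split between them and their separate values are uncertain. The constitutive chaperone Hspa8 had a ratio of -0.08, so the lower members were inducible ones. Hspa1a had a UMI in 22.2% and 41.1% of the thinned capillary cells, against 9.36% and 11.02% of mesenchymal cells. Immediate early genes, which dissociation of tissue also induces, gave 0 higher and 1 lower of 21, with a median of 0.04. The lower share was near that of all genes, 4.88%, and Egr1 and Jun had ratios of 0.04 and 0.08. The shear stress factors Klf2 and Klf4 were at 1916 and 2288 CPM and at 1228 and 1720 CPM, with ratios of -0.26 and -0.49. Without the other-cell barcodes Klf4 was at -0.62, -0.71 and -0.26 at interferon sums of 0, 1 to 4 and 5 to 9. None of 21 basement membrane genes was past 1.5-fold, except Timp3 at -0.62 without the other-cell barcodes. Of 14 genes of leukocyte adhesion and chemokines 2 were higher, Cxcl1 at 58.4 and 33.7 CPM and Cxcl2 with 106 and 26 UMIs, the latter with a ratio of -0.30 in the cells with an interferon sum under 3. Cxcl1 had a UMI in 5.90% and 5.02% of the thinned capillary cells, against 45.4% and 46.7% of mesenchymal cells.

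Some of these differences were seen in the other endothelial classes too, which are set side by side without a test of their difference. The classes come from the same 2 libraries, and arterial and venous cells were few, 194 and 134 in all. Zbtb16 was at -1.38 in arterial, -1.40 in venous and -1.91 in cells with an interferon sum of 10 or more, against -1.86 in capillary cells. Robo2 was at 1.83, 1.94 and 0.45 in these classes, and Rbp7 at -0.82, -1.30 and -0.26. Lpl was at -0.63, -0.00 and -1.24, and Id3 at -0.82, -0.09 and -0.90, so that both lay nearest to 0 in venous cells. Arhgap18 was at -0.36 in arterial, 0.86 in venous and 0.51 in interferon-high cells against 0.96 in capillary cells. Zbtb16 and Robo2 thus had 1 direction in all 4 classes. Hba-a1, a transcript of red blood cells, was also lower in all 4, at -1.29, -1.82, -1.44 and -2.11, and was at 126.5 and 309.3 CPM in capillary cells. The part of such free RNA in the other results was not tested.

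**Figure D5:**
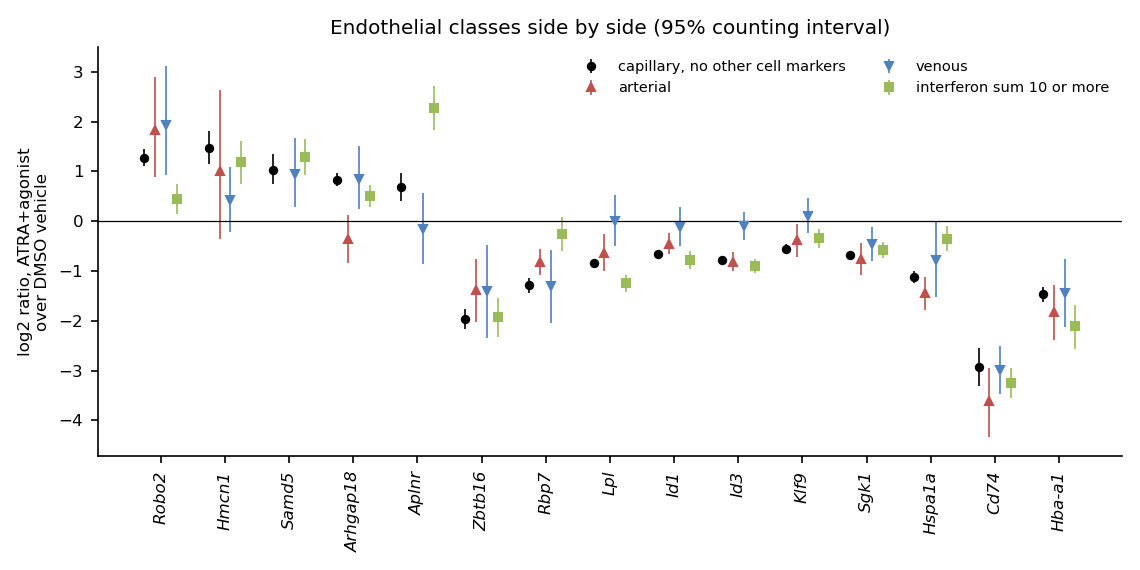
Log2 ratio of ATRA+agonist over DMSO vehicle (vertical axis) with 95% counting intervals for 15 genes in capillary cells without other-cell barcodes, arterial cells, venous cells and cells with an interferon sum of 10 or more. Zbtb16 lies below 0 and Robo2 above 0 in each class, and Lpl and Id3 lie near 0 in venous cells, where the intervals are wide.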

How the data were processed

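Single-cell RNA-Seq of hindlimb muscle was analysed in 2 libraries, 1 per group. The values deposited by the authors are unnormalized UMI counts of each gene in each barcode, from Cell Ranger 7.2.0 with 10x 3-prime libraries aligned to mm10 (GRCm38). The annotation release was not given in the sources used here, and positions came from GENCODE M21 by gene identifier. Cells with 300 to 5000 genes, under 20% mitochondrial and under 0.25% hemoglobin beta UMIs were kept, as in the authors' filters. Doublets were not removed from the values in the report, and their removal (7.5%, a rebuilt neighbor score) was an alternative.

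UMIs were summed over the gated cells of each library and given as CPM. Intervals were exact Poisson for CPM, Clopper-Pearson for shares and conditional binomial for ratios, at 95%. A count of 0 was set to 3 counts in a ratio. Intervals were checked on simulated independent Poisson counts, the model that they assume, so the check does not cover UMIs that clump in few cells. With 1 library per group no test was run. Python 3.11.15, numpy 2.4.6, scipy 1.17.1, pandas 2.3.3, scikit-learn 1.9.0 and matplotlib 3.10.9 were used.

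The gated members and the gene lists were chosen with earlier results of these data known. Named genes were the gate genes, up to 4 members per list with the most UMIs or the largest ratios past 1.5-fold, the genes the study singled out, the 10 largest rises and falls among genes with 400 or more UMIs, and the 10 with the highest ratio over arterial and venous cells. Further list members, Arhgap18 and Ets2 were named after their values were seen. Atp5pb and Rbpr2 were not matched to a gene of the files, and where a symbol had more than 1 identifier the one with more UMIs was used. Promoter windows are from RefSeq, build GRCm38.p6. Some genes that the naming rule takes in are not reported here. Barcodes are cells of pooled mice, not replicates.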

Additional observations from a re-analysis of the deposited data

Results flagged for a closer look

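For 7 pairs of a gene and an endothelial class, the log2 ratio of ATRA+agonist over DMSO vehicle had the opposite sign in capillary cells and in the other class of the same 2 libraries. In each case the difference was not tested, since there is 1 library per group.

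In the cells with an interferon sum of 10 or more, Mgp was at 2.31 against -5.83 in capillary cells, Itgbl1 at 1.14 against -4.89, Ccn2 at 1.37 against -4.80, Apod at 0.64 against -3.93 and Bgn at 1.41 against -3.31. These 5 genes are expressed by mesenchymal and tendon cells, and for Mgp the 1% of DMSO vehicle capillary cells with the most UMIs held 75.2% of them.

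In venous cells Mt1, a metallothionein, was at 0.93 against -1.94 in capillary cells, and Ccl21a, the lymphatic chemokine, at -1.42 against 2.44. The capillary value of Mt1 was -0.08 without the other-cell barcodes.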

How the results depend on the processing

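No paired analysis was possible because each group is 1 library. The ratio of the capillary shares was 1.78 with no limit on hemoglobin beta UMIs, 1.10 with no interferon limit, 2.25 with an interferon sum under 3, 2.14 with a capillary sum of at least 5, 1.66 with the gate applied after thinning and 2.22 over cells without Ptprc UMIs. The number of higher genes was 891 with no hemoglobin limit, and the numbers of higher and lower genes were 1119 and 1300 at a minimum of 20 UMIs and 79 and 94 at 400. Lower genes numbered 149 without other-cell barcodes and 150 with the thinned gate.

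With no hemoglobin limit the list medians were -0.057 for glucocorticoid-induced genes, 0.16 for the retinoic acid pathway, 0.26 for capillary genes, 0.12 for lipid handling, 0.19 for BMP and Id genes and 0.40 for endothelial identity. The retinoic acid median was 0.028 with no interferon limit, 0.13 as a mean of per-cell CPM, and -0.22 and 0.079 at minimums of 20 and 400 UMIs. The glucocorticoid median was -0.44 with an interferon sum under 3 and -0.18 at 400 UMIs, and the BMP median -0.13 at 20 UMIs. Endothelial identity was at 0.33 with an interferon sum under 3, 0.054 without other-cell barcodes and 0.10 with the thinned gate. The capillary list turned to -0.079 and -0.056 under the last 2 settings. The interferon-response list was at 0.47 with an interferon sum under 3 and 0.089 without other-cell barcodes, and turned to -0.70 with no interferon limit, -0.44 with the thinned gate and -0.10 as a mean of per-cell CPM. The cause was not tested.

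Genes that changed sign were Myl1 (-1.04), Tnnc2 (-0.95), Tnni2 (-0.30) and Mylpf (-0.57) with no maximum of genes, Ifit3 (-0.46) with no interferon limit, Cd74 (0.72), H2-Eb1 (0.84), H2-Ab1 (0.42) and Cxcl2 (-0.30) with an interferon sum under 3, Acsl3 (0.089), Notch2 (0.21), Acta1 (-0.057) and Tnni2 (-0.74) without other-cell barcodes, and Ifit3 (-0.071) and Cxcl2 (-0.78) with the thinned gate. Of 106 named genes, 0 changed sign with doublets removed or under median-of-ratios scaling, and 15 and 9 moved beyond their counting interval. More moved under other settings, not counting changes of sign. These were 62 with no hemoglobin limit, 60 with the thinned gate, 56 with no interferon limit and 43 as a mean of per-cell CPM. A capillary sum of at least 5 moved 27. An interferon sum under 3 moved 37 of 105, and leaving out other-cell barcodes moved 52 of 99. Depth limits genes with under 100 UMIs, and a difference of the pooled mice cannot be told apart from one of the treatment.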

Other observations

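Genes of vascular tone and hemostasis were mixed in capillary cells, with 1 higher and 2 lower of 17 measured members and a median log2 ratio of 0.22. Of 16 junction genes 1 was higher and 2 were lower, beside 4.24% and 4.88% of all genes. Their median was 0.13, and the surface protein Jam2 had a ratio of 0.39. Cd200, a surface protein that restrains myeloid cells, was at 569.3 CPM with ATRA+agonist and 381.6 CPM with DMSO vehicle, a ratio of 0.58, and Timp3, a protease inhibitor bound to the matrix, was at 995.1 and 1423 CPM, a ratio of -0.52. Of 9 measured genes of NAD metabolism and sirtuins 1 was higher, Nmrk1, a kinase for nicotinamide riboside, with 138 and 35 UMIs, while the NAD glycohydrolase Cd38 was at 0.50 and Sirt1 at -0.20. The transcription factor Ets2 was at 468.8 and 316.9 CPM, a ratio of 0.57 (0.46 to 0.68).

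Of 12 measured circadian clock genes 0 were higher and 3 lower, with a median of -0.23, but without the other-cell barcodes 1 of 11 was lower and the median was -0.05. The lower genes were Per1, Dbp and Bhlhe40. Bhlhe40, a repressor of the clock, was at 40.5 and 70.2 CPM, a ratio of -0.79 that was -0.46 without the other-cell barcodes. Per2, with too few UMIs to be counted, had 45 and 52 UMIs and a ratio of -1.18 (-1.79 to -0.58). Per1 belongs to this list and to the glucocorticoid-induced one.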
